A study of Mus musculus with 8 samples.

Results

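The Egr family of zinc-finger transcription factors (Egr1, Egr2, Egr3 and Egr4) and its corepressors Nab1 and Nab2 were followed in RNA labelled as neuron from mice short of the sodium channel NaV1.2. The 6 genes were chosen by name among the 54446 gene rows of the deposited count matrix, and all 6 were among the 17395 genes with enough counts to be tested. Total RNA was sequenced from 4 mouse samples whose copies of Scn2a both carry a gene trap (Homozygous Scn2agt/gt, called HOM) and from 4 Wild-type littermates (WT), which came from heterozygous breeding pairs on a background labelled C75BL6. Scn2a encodes NaV1.2, and a gene trap is a DNA insert that cuts a gene's transcript short, here inherited by the whole animal rather than set in 1 cell type. The series title places the mice in adulthood, and the comparison asks what a severe shortage of the channel does to gene expression. The labels give no age, sex or brain region and do not say that each sample came from its own mouse, so each p-value speaks only of the spread among these samples.

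Egr genes are immediate early genes: in neurons, synaptic activity and calcium entry switch their transcription on quickly through the ERK kinases, serum response factor with its Elk partners, and CREB. The proteins bind GC-rich DNA and control later waves of genes, and Egr1 and Egr3 are known for roles in lasting synaptic plasticity and memory. Nab1 and Nab2 bind the inhibitory domain of Egr1, Egr2 and Egr3, which Egr4 lacks, and recruit the NuRD chromatin complex; Nab2 is itself a reported Egr-induced gene, which makes a feedback loop.

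All 4 Egr genes fell in HOM, neither corepressor gene passed the test, and the ratio of Egr to Nab counts was lower in HOM. Egr2 fell to 15.1% of its WT level, Egr1 to 34.3%, Egr4 to 38.5% and Egr3 to 57.0%. Of the 6 genes 4 were lower at an edgeR adjusted p under 0.05, against 2.94% of all 17395 genes tested that were lower, 2.47% that were higher and 5.4% that passed in either direction. That split turns with the scaling of libraries: 511 genes were lower and 429 higher here, 355 lower and 539 higher with upper-quartile scaling, and 286 lower and 844 higher with library totals only, while the 4 Egr genes were lower under each. In 5 of the 6, every HOM library lay below every WT library, which 7.47% of all genes tested did.

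Total counts lay between 27993412 and 37538988 per library. The trapped gene checked the labels: Scn2a stood at 122, 147, 131 and 112 CPM in HOM replicates 1 to 4, against 477, 371, 477 and 415 CPM in WT replicates 1 to 4 (CPM is counts scaled to TMM-adjusted library sizes; log2 fold change -1.77 with an SE of 0.10, edgeR adjusted p = 1.16e-05). The labelled cell type is neuron, and neuronal transcripts were abundant, with summed CPM of 6 excitatory markers of 4682.2 to 5290.2 in HOM and 5332.8 to 6044.2 in WT. Transcripts of other cells were abundant too: 5 astrocyte markers summed to 3199.7 to 4042.9 CPM in HOM and 4116.5 to 4432.4 CPM in WT, and 6 oligodendrocyte markers to 3146.6 to 3845.9 CPM in HOM and 3650.6 to 5482.9 CPM in WT. Of the defining markers looked up, Tubb3 for neurons, P2ry12 for microglia, Kcnj13 for choroid plexus and Pmp2 for Schwann cells were at 0 in every library, but each lies wholly inside another annotated gene, and nearly all such genes stood at 0, so they were not measured. Of 5 T cell genes, Cd3e, Cd3g and Cd8a were too low to test, and Cd3e shares a fraction of 0.437 of its span with other genes. The other T cell genes were detected and did not pass with edgeR. Cd4 averaged 6.75 CPM in HOM and 6.51 CPM in WT, and Lck 1.96 CPM in HOM and 1.32 CPM in WT. A pair of libraries stood apart. WT replicate 4 held 1805.2 CPM of 15 choroid plexus markers, against 20.9 to 247 CPM in the HOM libraries and 156 to 447 CPM in the other WT libraries. HOM replicate 4 held 2 counts of Y-linked genes, where every other library held 4452 to 5984.

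Egr1, the most abundant of the 4 and the one best known from hippocampal plasticity (Zif268), stood at 159, 136, 120 and 99.8 CPM in HOM replicates 1 to 4, against 355, 361, 433 and 351 CPM in WT replicates 1 to 4. The genotypes lay far apart, with the lowest WT library 2.21 times the highest HOM library. The mean was 129 ± 25.0 CPM in HOM and 375 ± 38.9 CPM in WT (SD, n = 4 each), a log2 fold change of -1.54 (SE 0.13, 95% interval -1.82 to -1.27, edgeR adjusted p = 0.00014). Only 45 of the genes tested had a lower log2 fold change. Egr1 (ENSMUSG00000038418) lies on chromosome 18 of GRCm38, from 34859823 to 34864984 on the plus strand, and shares no exonic base with another gene.

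Egr3, also induced by neuronal activity and known for roles in memory and in muscle spindle development, stood at 103, 102, 101 and 90.4 CPM in HOM replicates 1 to 4 and at 173, 166, 191 and 166 CPM in WT replicates 1 to 4. It was the steadiest Egr gene between libraries, with a coefficient of variation of 5.95% in HOM and 6.6% in WT, and the genotypes did not overlap. The mean was 99.2 ± 5.90 CPM in HOM and 174 ± 11.5 CPM in WT (SD, n = 4 each). Its log2 fold change of -0.81 (SE 0.07, 95% interval -0.96 to -0.66, edgeR adjusted p = 0.000174) was the smallest in size of the 4. Egr3 (ENSMUSG00000033730) lies on chromosome 14, from 70077203 to 70082614 on the plus strand.

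Egr2, known as Krox20 and required for hindbrain patterning and for myelination by Schwann cells, was the scarcest Egr transcript and the one that fell most. It stood at 2.66, 2.53, 1.92 and 2.09 CPM in HOM replicates 1 to 4, against 18.4, 14.0, 17.8 and 10.9 CPM in WT replicates 1 to 4. The lowest WT library was 4.12 times the highest HOM library. The mean was 2.30 ± 0.35 CPM in HOM and 15.3 ± 3.47 CPM in WT (SD, n = 4 each), a log2 fold change of -2.73 (SE 0.18, 95% interval -3.12 to -2.34, edgeR adjusted p = 2.3e-05), with 7 genes lower by fold change. The HOM values rest on 62 to 96 counts a library and the WT values on 345 to 679, so that counting alone gives a coefficient of variation of 11.6% in HOM, against 15.2% observed, and of 4.67% in WT, against 22.7% observed. By p-value only Scn2a ranked before Egr2 among all genes tested. Egr2 (ENSMUSG00000037868) lies on chromosome 10, from 67535475 to 67542188 on the plus strand, and shares no exonic base with another gene.

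Egr4 (ENSMUSG00000071341; chromosome 6, 85511121 to 85513589 on the minus strand), another activity-induced member, stood at 24.7, 23.6, 23.5 and 27.4 CPM in HOM replicates 1 to 4 and at 59.5, 82.6, 63.9 and 51.4 CPM in WT replicates 1 to 4. Its HOM libraries lay close together and its WT libraries were spread, with WT replicate 2 the highest, and the genotypes did not overlap. The mean was 24.8 ± 1.81 CPM in HOM and 64.4 ± 13.2 CPM in WT (SD, n = 4 each), a log2 fold change of -1.37 (SE 0.13, 95% interval -1.65 to -1.10, edgeR adjusted p = 0.000289). Each of the 4 Egr genes, tested alone on log2 CPM by exact two-sided permutation, gave p = 0.0286, the smallest value that 70 relabellings allow. Genotypes without overlap give that p, and 14.1% of all genes tested showed no overlap in either direction.

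RefSeq promoter windows (GRCm38.p6, 250 bases before the transcript start) matched 4 of the 6 genes by symbol, Egr2, Egr4, Nab1 and Nab2. The Egr windows are shown for their matches to elements of the kinds through which activity is known to reach Egr genes. Whether these matches act in either gene was not tested. Capitals mark the CArG box, the binding sequence of serum response factor, and TGACG, the core of the cyclic-AMP response element, on either strand (CGTCA is its reverse). Egr2 is at chr10:67537619-67537868 (plus strand) and Egr4 at chr6:85513590-85513839 (minus strand), each 5′ to 3′.
Egr2: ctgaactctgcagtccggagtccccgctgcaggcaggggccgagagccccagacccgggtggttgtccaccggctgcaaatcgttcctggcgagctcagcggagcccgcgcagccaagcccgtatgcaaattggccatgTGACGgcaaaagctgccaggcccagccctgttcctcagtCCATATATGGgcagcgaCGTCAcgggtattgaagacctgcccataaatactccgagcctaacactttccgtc
Egr4: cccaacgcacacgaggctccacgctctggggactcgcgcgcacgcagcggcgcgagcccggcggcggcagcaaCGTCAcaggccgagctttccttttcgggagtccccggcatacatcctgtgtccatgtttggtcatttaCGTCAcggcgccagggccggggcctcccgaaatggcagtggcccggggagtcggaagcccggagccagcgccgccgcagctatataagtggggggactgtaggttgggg

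The Egr2 window holds 1 CArG box, CCATATATGG, from -72 to -63 before the start, and 2 TGACG cores, from -111 to -107 and, reversed, from -55 to -51. The Egr4 window holds 2 reversed TGACG cores, from -177 to -173 and from -109 to -105, and no CArG box. Of 32851 such windows of mouse transcripts 1.47% hold a CArG box and 17.8% a TGACG core, so the CArG box is the rarer match. Neither window holds the full palindrome TGACGTCA, which 1.55% of windows do.

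**Figure D1:**
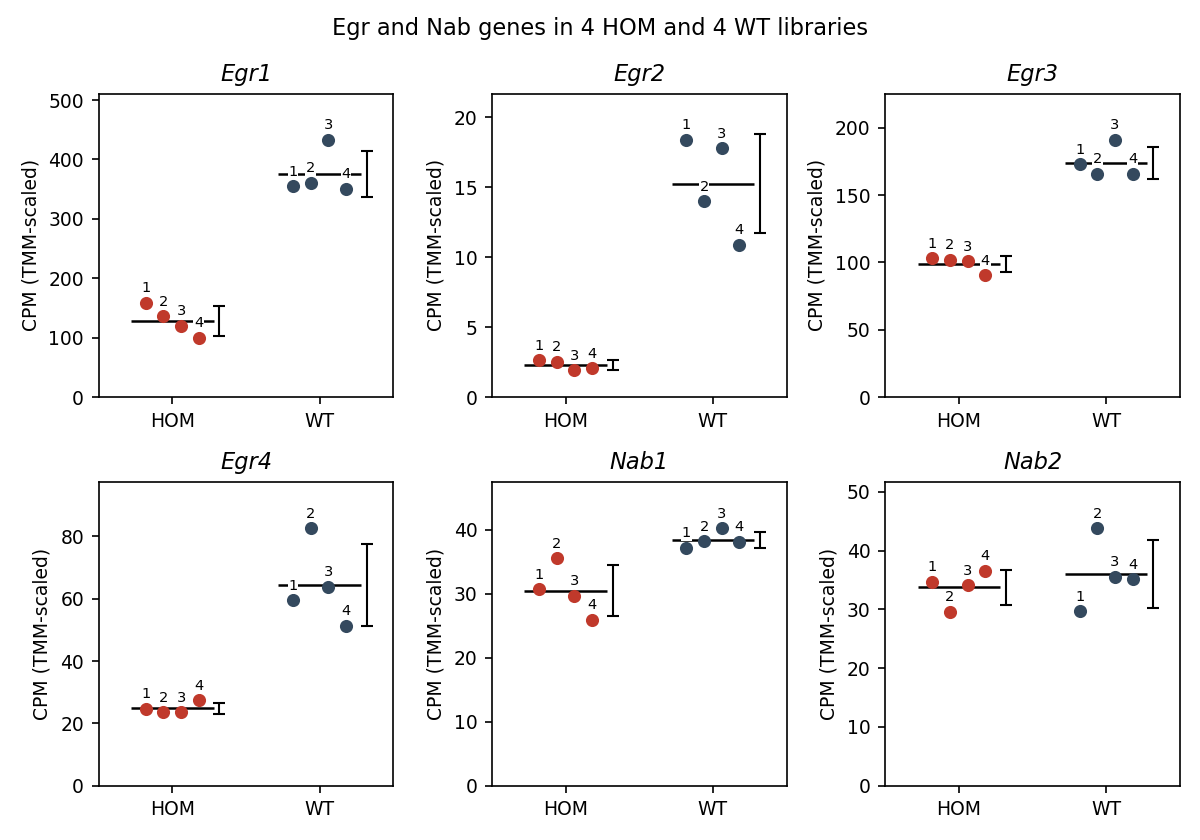
Level of each Egr and Nab gene (y axis, TMM-scaled CPM, starting at 0) in the 4 HOM and 4 WT libraries, with replicate numbers; lines are means and bars 1 SD. Every HOM library lies below every WT library for Egr1, Egr2, Egr3, Egr4 and Nab1, and the genotypes overlap for Nab2.

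Nab1, a corepressor gene whose product holds Egr proteins in check, stood at 30.7, 35.5, 29.7 and 25.9 CPM in HOM replicates 1 to 4 and at 37.2, 38.2, 40.2 and 38.1 CPM in WT replicates 1 to 4. All HOM libraries were lower, but narrowly: the lowest WT library was 1.05 times the highest HOM library. The mean was 30.5 ± 3.95 CPM in HOM and 38.4 ± 1.26 CPM in WT (SD, n = 4 each). The log2 fold change was -0.34 (SE 0.09, 95% interval -0.53 to -0.14), which missed the threshold at an edgeR adjusted p of 0.0518. In the exact two-sided permutation test p was 0.0286, a value that 5 of the 6 genes reached. Any gene without overlap between genotypes gives that p, and 14.1% of all genes tested had none in either direction. Its side of the threshold depended on the method: adjusted p was 0.0114 with DESeq2, 0.0443 with limma-voom, 0.0206 without HOM replicate 2 and 0.104 without HOM replicate 4, and it ran from 0.0114 to 0.374 over all 21 alternatives, of which 6 called the gene. Nab1 (ENSMUSG00000002881) lies on chromosome 1, from 52457294 to 52500679 on the minus strand, and 39.3 kb of that span are introns.

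In the Nab1 window the Egr binding sequence GCGTGGGCG was found in 2 places, a match that 0.536% of windows hold, on either strand. Each is shown with its neighbours in 30 bases of the minus strand, 5′ to 3′, at chr1:52500571-52500600 and chr1:52500539-52500568, with the site in capitals.
Nab1 distal site: cgccccgcggcCGCCCACGCcgggatctgc
Nab1 proximal site: cactcggccgcGCGTGGGCGggagccggag

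The distal site lies from -141 to -133 on the opposite strand and the proximal one from -109 to -101, and a related GCGGGGGCG lies from -38 to -30, a match that 2.57% of windows hold. The window is 80.8% G or C, and the shares given are over all windows, whatever their GC content. The annotation puts 231 of its bases in an exon. The sites lie in the first exon of the principal Nab1 transcript, which starts further upstream, at 52500679. The Nab2 window held none of the 5 motifs searched, which says nothing beyond these 250 bases. These matches are letters in a window, and no binding was measured.

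Nab2, the corepressor gene that Egr proteins are reported to induce, stood at 34.7, 29.6, 34.1 and 36.6 CPM in HOM replicates 1 to 4 and at 29.7, 43.8, 35.6 and 35.1 CPM in WT replicates 1 to 4. The genotypes overlapped, and WT replicates 1 and 2 lay at either end of the WT range. The mean was 33.7 ± 2.96 CPM in HOM and 36.0 ± 5.84 CPM in WT (SD, n = 4 each), a log2 fold change of -0.09 (SE 0.11, edgeR adjusted p = 0.654), with p = 0.486 in the exact two-sided permutation test. The 95% interval ran from -0.33 to 0.15, or 79.3% to 111% of the WT level, so a fall of the size seen in any Egr gene lay outside it while a smaller change did not. Nab2 (ENSMUSG00000025402; chromosome 10, 127660918 to 127668568 on the minus strand) shares 44.5% of its exonic bases with Stat6, Nemp1 and Gm16229, and reads in shared stretches appear to have been dropped in counting, so its level is uncertain. The other 5 genes share none.

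**Figure D2:**
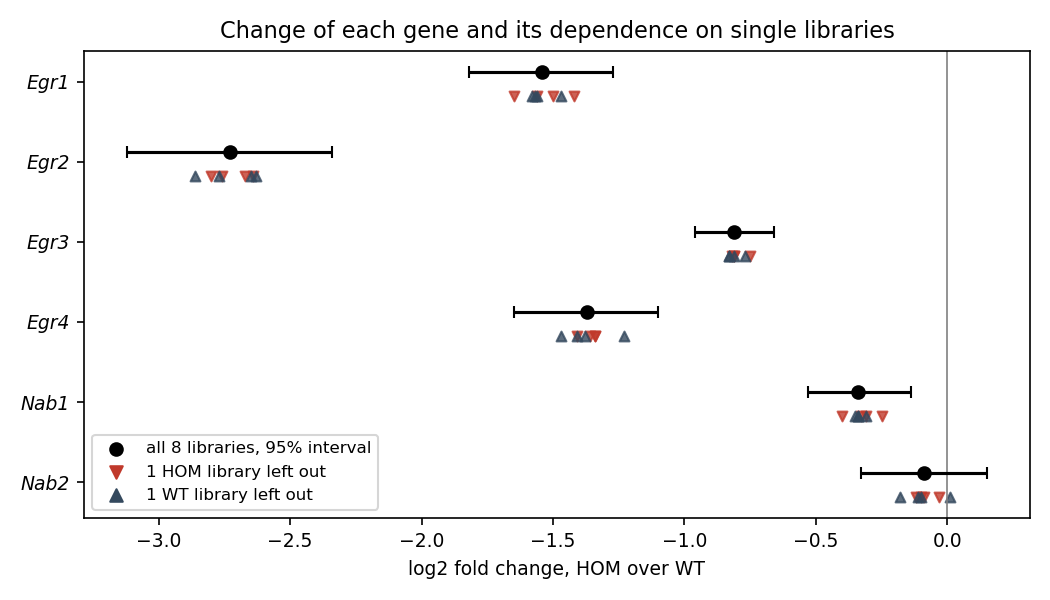
Log2 fold change of each gene (x axis, HOM over WT) with all 8 libraries (black, 95% interval) and with 1 library left out (red for HOM, blue for WT). The 4 Egr genes stay well below 0 in every fit, Nab1 stays below 0, and Nab2 crosses 0 without WT replicate 2.

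These differences stood beside shifts in cell type markers. Over all genes tested 2.94% were lower and 2.47% higher at the edgeR threshold, the background for the counts that follow. The summed level of the 6 excitatory neuron markers in HOM was 87.9% of that in WT, and that of 4 general neuron markers, with Tubb3 at 0, was 85.2%. In each list 1 gene was lower, Neurod6 and Snap25, which fell by 0.29 and 0.33 on the log2 scale. Log2 fold changes were below 0 in 5 of the 6 excitatory and 2 of the 3 general markers tested, while Neurod2 stood at 0.02 and Rbfox3 at 0.10. The 8 striatal projection neuron markers summed to 106% of the WT level, with 1 of 8 below 0 and 0 called. Of 6 inhibitory neuron markers 1 was lower, Gad1, which fell by 0.48. Summed levels of other cell types differed too: the sum in HOM was 77.7% of that in WT for endothelial cells, with Flt1 and Cdh5 lower of 6 tested, 83.9% for astrocytes, with Aqp4 lower of 5, 81.7% for oligodendrocytes, with none of 6 called by edgeR, and 108% for microglia, with C1qa higher of 4. The part of these endothelial and glial shifts in the Egr results was not tested. In bulk RNA, fewer cells of a type and less RNA per cell cannot be told apart. With libraries scaled to the excitatory markers, an alternative chosen after the data were seen, log2 fold changes were -1.35 for Egr1, -2.53 for Egr2, -0.62 for Egr3 and -1.18 for Egr4, and the median of all genes moved to 0.19. All 4 passed the threshold there too, with Egr3 at an edgeR adjusted p of 0.00197, while Nab1 stood at -0.15 (adjusted p = 0.374) and Nab2 at 0.10 (adjusted p = 0.565). Of 15 choroid plexus markers 14 were tested and 5 were lower, and their sum in HOM was 11.9% of that in WT, or 25.4% without WT replicate 4; HOM replicate 1, at 247 CPM, lay above WT replicate 3, at 156 CPM. Of these markers limma-voom called 1, Ttr, and robust quasi-likelihood 0. With their level as a covariate the log2 fold changes were -1.50 for Egr1, -2.96 for Egr2, -0.85 for Egr3 and -1.59 for Egr4, and edgeR adjusted p was at most 0.0131. Without both replicates numbered 4, the libraries that stood apart, they were -1.46, -2.81, -0.78 and -1.51 in the same gene order, with adjusted p of at most 0.000734.

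Levels of different genes were compared as CPM per kb of exonic sequence. In HOM the order of means was Egr1 (28.7 ± 5.58), Egr3 (22.5 ± 1.34), Egr4 (11.5 ± 0.844), Nab2 (11.5 ± 1.01), Nab1 (7.43 ± 0.963) and Egr2 (0.677 ± 0.103). In WT it was Egr1 (83.7 ± 8.68), Egr3 (39.5 ± 2.61), Egr4 (30.0 ± 6.17), Nab2 (12.3 ± 1.99), Nab1 (9.37 ± 0.307) and Egr2 (4.49 ± 1.02 CPM per kb; SD, n = 4 for each). The order was thus the same by mean, but the steps between neighbours differed. In HOM Egr4 and Nab2 could not be ordered, Egr4 being above in 2 of 4 libraries, and the ranges of Egr1 and Egr3 overlapped although Egr1 was above in 4 of 4. In WT the ranges of Egr3 and Egr4 overlapped, with Egr3 above in 3 of 4 libraries, and Egr4 was above Nab2 in 4 of 4. Because the counts appear to include introns, the place of Nab1 is uncertain: per kb of whole gene span it stood at 0.703 in HOM and 0.886 in WT, and there it came last in WT, below Egr2.

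Summed over the family, Egr counts reached 255 ± 29.2 CPM in HOM and 629 ± 53.9 CPM in WT (SD, n = 4 each). On the scale per kb of exonic sequence, Egr1 made up 44.9% of the Egr sum in HOM and 53.1% in WT, Egr3 35.6% in HOM and 25.1% in WT, Egr4 18.4% in HOM and 19.0% in WT, and Egr2 1.07% in HOM and 2.84% in WT. The Egr pool of HOM libraries therefore held relatively more Egr3 and less Egr1 and Egr2. The sum of both Nab genes was 64.2 ± 1.33 CPM in HOM and 74.5 ± 6.30 CPM in WT, and the ratio of Egr to Nab CPM was 3.97 ± 0.377 in HOM and 8.48 ± 0.842 in WT. It lay between 3.52 and 4.42 in the HOM libraries and between 7.60 and 9.31 in the WT libraries, without overlap. Per kb of exonic sequence the ratio was 3.35 ± 0.300 in HOM and 7.32 ± 0.724 in WT, and its size depends on how the intronic reads of Nab1 and the shared exons of Nab2 were counted.

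Whether the genes changed by different amounts was tested on the log2 ratio of each of the 15 pairs within a library, a measure that does not depend on library scaling. In 13 pairs the genotypes did not overlap and the exact two-sided permutation test gave p = 0.0286, the smallest possible, or 0.033 after Benjamini-Hochberg adjustment over the 15 pairs. Egr2 fell more than each of the other Egr genes: the log2 ratio of Egr1 over Egr2 was 1.12 higher in HOM (95% interval 0.67 to 1.57), that of Egr2 over Egr3 was -1.87 (-2.31 to -1.43) and that of Egr2 over Egr4 -1.33 (-1.92 to -0.74), each as HOM minus WT. Egr3 fell less than Egr1, with a difference of -0.75 for Egr1 over Egr3 (95% interval -1.07 to -0.43), and less than Egr4, with 0.54 for Egr3 over Egr4 (0.08 to 1.01).

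Egr1 and Egr4 could not be separated, with a difference of -0.21 (95% interval -0.78 to 0.37, exact two-sided permutation test, p = 0.4, adjusted p = 0.4). That interval leaves room for either gene to have fallen more. Nab1 and Nab2 could not be separated either, at -0.26 (-0.74 to 0.22, exact two-sided permutation test, p = 0.286, adjusted p = 0.306). Every Egr gene fell relative to each Nab gene, from -0.47 for Egr3 over Nab1 to -2.59 for Egr2 over Nab2. Egr4, whose protein lacks the Nab-binding domain, lay among the others in this, at -1.01 over Nab1 and -1.27 over Nab2.

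**Figure D3:**
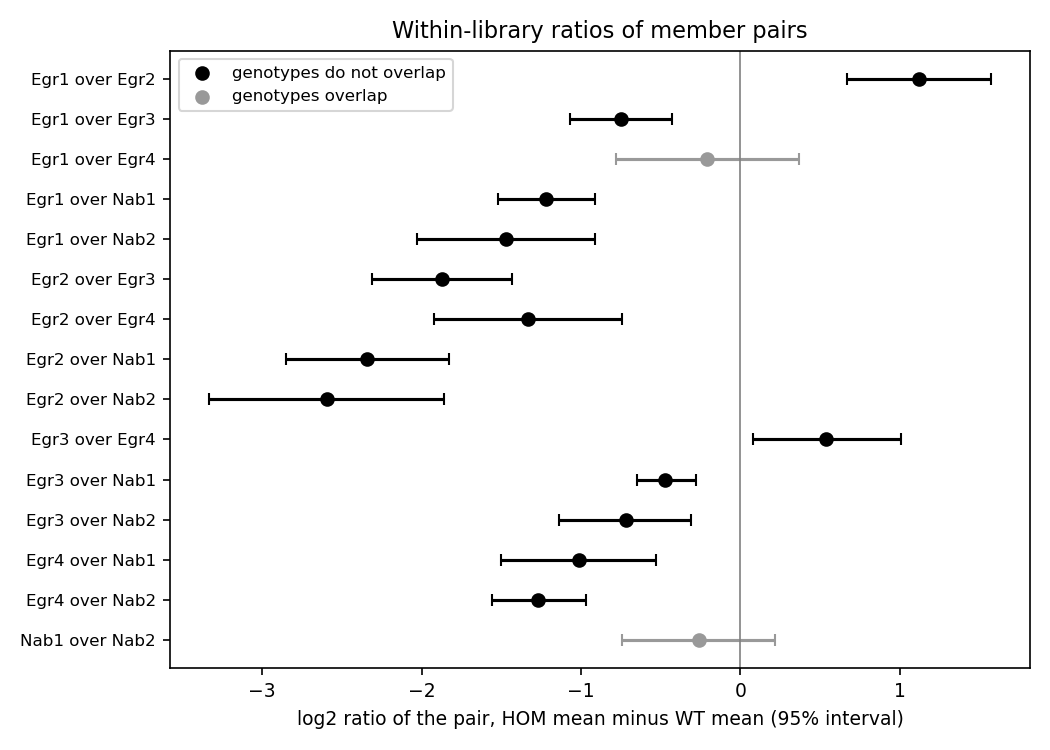
Difference in the within-library log2 ratio of each of the 15 gene pairs (x axis, HOM mean minus WT mean, with 95% interval). Black points are pairs whose genotypes do not overlap, which is all but Egr1 over Egr4 and Nab1 over Nab2 (grey).

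Within a genotype, libraries high in one gene were not uniformly high in the others. Deviations of log2 CPM from the genotype mean were correlated over the 8 libraries for the 15 pairs, with p from every pairing within genotypes. The closest pair was Egr1 with Egr3 (Pearson's r = 0.84, exact permutation p = 0.00694, adjusted p = 0.104 over the 15 pairs; Spearman's rho = 0.81, permutation p = 0.0312, adjusted p = 0.229), and r was again 0.84 without HOM replicates 1 and 4, the libraries farthest out in Egr1. Egr4 was highest with Nab2 (r = 0.72, exact permutation p = 0.13, adjusted p = 0.451; rho = 0.79, permutation p = 0.033, adjusted p = 0.229; r = 0.75 without WT replicates 2 and 4) and not with Egr1 (r = -0.12, exact permutation p = 0.719, adjusted p = 0.77; rho = 0.24, permutation p = 0.559, adjusted p = 0.839; r = 0.12 without HOM replicates 1 and 4). By the exact permutation test none of the 15 passed after adjustment, and 1 had an unadjusted p under 0.05 by Pearson's r.

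HOM replicate 1 had the highest Egr1 of its genotype, 0.32 above the HOM mean on the log2 scale, and HOM replicate 4 the lowest, at -0.34. WT replicate 3 lay above the WT mean in Egr1, Egr2 and Egr3, by 0.21, 0.25 and 0.13. WT replicate 4 lay lowest in Egr2 and Egr4, at -0.45 and -0.30, and WT replicate 2 was highest in Egr4 and Nab2, at 0.38 and 0.30. The deviations of each Egr gene were smaller than its own log2 fold change, whereas the Nab2 deviation of 0.30 was larger than its log2 fold change of -0.09.

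**Figure D4:**
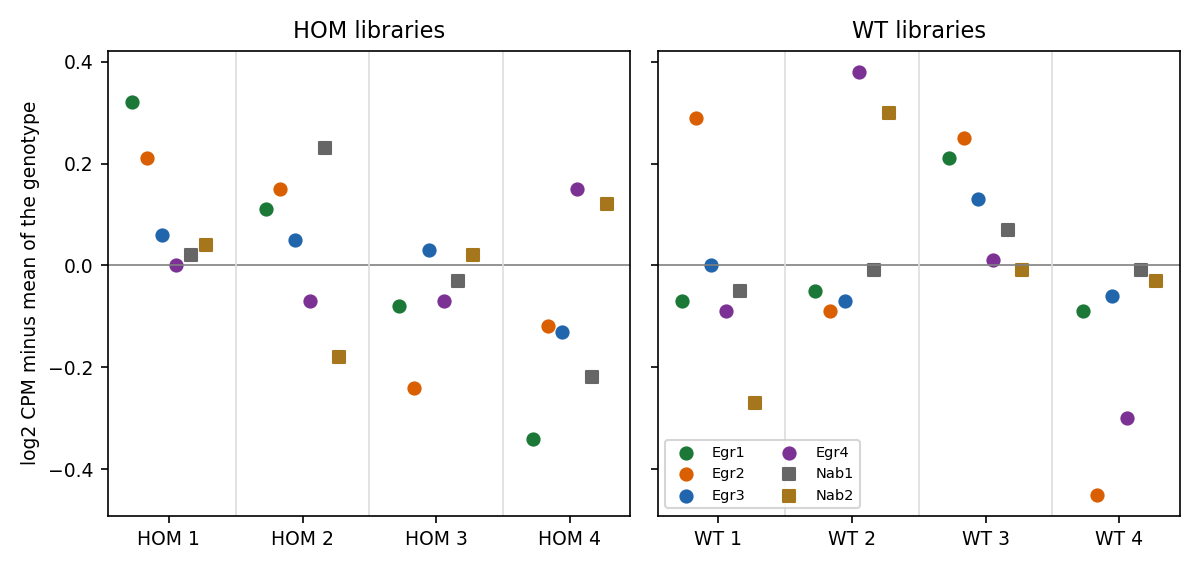
Log2 CPM of each gene minus the mean of its genotype (y axis) in each HOM and WT library; circles are Egr genes and squares Nab genes. Egr1 runs between 0.32 in HOM replicate 1 and -0.34 in HOM replicate 4, and the largest departure is Egr2 in WT replicate 4 at -0.45.

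The mean deviation of the 4 Egr genes was set against every other protein-coding gene of at least 1 CPM, 13404 in all, as a description. The 6 most alike over the 8 libraries were Boc (r = 0.977), a receptor of hedgehog signalling; Utp23 (0.975), which serves ribosome assembly; Egfem1 (0.973); Tmem117 (0.969); Arntl (0.967), the clock activator BMAL1; and Zfp541 (0.966), with 42 genes above 0.9. They were not lower in HOM as a group: Egfem1 rose, at 62.4 ± 10.7 CPM in HOM and 36.7 ± 6.51 CPM in WT (SD, n = 4 each; log2 fold change 0.77, edgeR adjusted p = 0.0141), as did Tmem117 (0.52, adjusted p = 0.0228). The other 4 did not pass. Immediate early genes and a phosphatase gene of the ERK pathway came further down that order of 13404 genes. They were Nr4a1 (0.877, rank 81), Dusp6 (0.852, rank 121), Arc (0.843, rank 146), Junb (0.786, rank 315), Fos (0.768, rank 375) and Fosb (0.583, rank 1200). All of these were lower in HOM, with log2 fold changes of -1.0, -1.09, -1.47, -1.07, -1.88 and -1.36 in the same order (edgeR adjusted p of at most 0.0263). Over all genes tested 2.94% were lower. These 6 were picked by name and other members of their families are not reported here, so they stand for no wider set. Scn2a had an r of 0.335 with the mean Egr deviation (rank 3115). The mean deviation of the 3 general neuron markers with counts followed that of the Egr genes with r = 0.99. Other neuron lists did not: r was 0.50 for the excitatory, -0.15 for the inhibitory and -0.22 for the striatal markers. The remaining marker lists lay between -0.75 for oligodendrocytes and 0.68 for endothelial cells. Among the lists of related genes described below, r ran from -0.65 for Egr2 targets of Schwann cells to 0.70 for the ERK, serum response factor and CREB inputs. These values share library depth and scaling, and the part of neuron content in the spread between libraries was not tested.

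None of the listed genes upstream of Egr transcription passed the test, where 5.4% of all genes did, so that 0 calls in a list of this size is near the background. Of 28 listed kinases, coactivators and factors of the ERK, serum response factor and CREB routes 27 were tested with edgeR, and 7 had an unadjusted p under 0.05. Such p-values were common over all genes: Mbp, with an unadjusted edgeR p of 0.0471, had an adjusted p of 0.211. These 7 are therefore not read as an excess. Of the 27 tested genes DESeq2 called 3 (Mapk3 and Rps6ka5 higher, Camk4 lower) and limma-voom 0. With libraries scaled to excitatory markers edgeR called 7, all higher. That scaling called 2686 of all genes, 2553 of them higher and 133 lower, so the direction of these 7 is not read as a result about the list. Rps6ka5 passed in 8 of the 21 alternatives, edgeR with upper-quartile scaling or library totals among them, Mapk3 in 6 and Camk4 in 3. The median log2 fold change was 0.03, against 0.00 over all genes. Closest to the threshold were Rps6ka5, the kinase MSK1 that acts on CREB and histone H3 (0.30, SE 0.08, adjusted p = 0.0552), Mapk3, which encodes ERK1 (0.29, SE 0.09, adjusted p = 0.0749), Camk4, a calcium-dependent kinase of CREB (-0.30, SE 0.10, adjusted p = 0.0861), and Mrtfb, a serum response factor coactivator (0.35, SE 0.11, adjusted p = 0.095). Creb1, which encodes CREB, averaged 64.2 ± 5.82 CPM in HOM and 69.4 ± 4.74 CPM in WT (SD, n = 4 each). Srf was at 0 in every library, as were nearly all genes nested in another gene, so it was not measured. Transcript counts do not report kinase activity.

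The partners of Nab and Egr proteins, mostly subunits of NuRD, did not pass either, again near the background of 5.4%. All 16 were tested, with a median log2 fold change of -0.02. With edgeR 2 had an unadjusted p under 0.05, which was common over all genes. DESeq2 called 1, Hdac1, and limma-voom 0. Scaled to excitatory markers, edgeR called 3, which were Chd3, Hdac1 and Mta1, all higher. Over all genes 2553 of the 2686 called under that scaling were higher too. Chd4, the NuRD helicase that Nab2 binds, averaged 213 ± 6.67 CPM in HOM and 236 ± 9.47 CPM in WT (SD, n = 4 each; edgeR log2 fold change -0.14, adjusted p = 0.168). The histone deacetylase gene Hdac1 stood at 0.20 (adjusted p = 0.097), Rbbp7, a histone chaperone of NuRD, at -0.12 (adjusted p = 0.251) and the NuRD scaffold gene Gatad2a at -0.14 (adjusted p = 0.264). Of 5 zinc-finger factors that bind overlapping GC-rich sites 4 were tested and none passed with edgeR, DESeq2 or limma-voom or had an unadjusted p under 0.05, with Sp1 at -0.11, Sp2 at 0.14, Sp3 at -0.06 and Sp4 at 0.00; the median was -0.03, and Wt1 was too low to test.

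Of 26 reported Egr target genes 25 were tested, and 4 were lower in HOM and none higher. The 21 others did not pass. Over all genes tested 2.94% were lower and 2.47% higher. A log2 fold change below 0 was seen in 20 of the 25, with a median of -0.19, beside 0.00 over all genes. Arc, whose product acts at dendrites in synaptic plasticity, fell to 80.7 ± 34.3 CPM in HOM, against 224 ± 45.9 CPM in WT (SD, n = 4 each; log2 fold change -1.47, SE 0.25, edgeR adjusted p = 0.00993). Arc is itself an immediate early gene.

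The other 3 were smaller. Cdkn1a, the cell cycle inhibitor p21, averaged 6.70 ± 0.544 CPM in HOM and 10.6 ± 1.69 CPM in WT (log2 fold change -0.65, edgeR adjusted p = 0.0178). Gadd45b, a stress- and activity-induced gene linked to DNA demethylation, averaged 7.13 ± 0.811 CPM in HOM and 10.5 ± 1.53 CPM in WT (-0.56, edgeR adjusted p = 0.0288). Cdk5r1, which encodes the p35 activator of the neuronal kinase Cdk5, averaged 324 ± 18.5 CPM in HOM and 386 ± 9.47 CPM in WT (SD, n = 4 for each gene; -0.25, edgeR adjusted p = 0.0369). In all 4 the genotypes did not overlap, a pattern 7.47% of all genes tested showed in this direction.

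These calls depended more on the fit than those of the Egr genes, which passed in all 21 alternatives. With choroid plexus level added as a covariate none of the 4 passed, and Arc had an edgeR adjusted p of 0.146 at a log2 fold change of -1.33, the 1 alternative of 21 in which its call was lost (adjusted p 0.000158 to 0.146 over all). The log2 fold changes of the other 3 were not smaller in that fit, at -0.69 for Cdkn1a, -0.57 for Gadd45b and -0.28 for Cdk5r1. Cdk5r1 lost its call without any 1 library, with adjusted p between 0.0555 and 0.132, and stood at -0.07 when libraries were scaled to excitatory markers. Cdkn1a lost it without HOM replicate 1, HOM replicate 3 or WT replicate 3 (adjusted p = 0.0529, 0.0689 and 0.0646). Gadd45b lost it without HOM replicate 1, HOM replicate 3, WT replicate 1, WT replicate 2 or WT replicate 3, with adjusted p between 0.0505 and 0.104.

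Among reported targets with steadier roles at synapses, Syn1, a synaptic vesicle protein gene, averaged 627 ± 41.9 CPM in HOM and 721 ± 50.7 CPM in WT (-0.20, edgeR adjusted p = 0.122), Syn2 stood at -0.03, Dlg4, which encodes the postsynaptic scaffold PSD-95, at -0.01, and the GABA-A receptor gene Gabra4 at -0.30 (adjusted p = 0.0978).

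**Figure D5:**
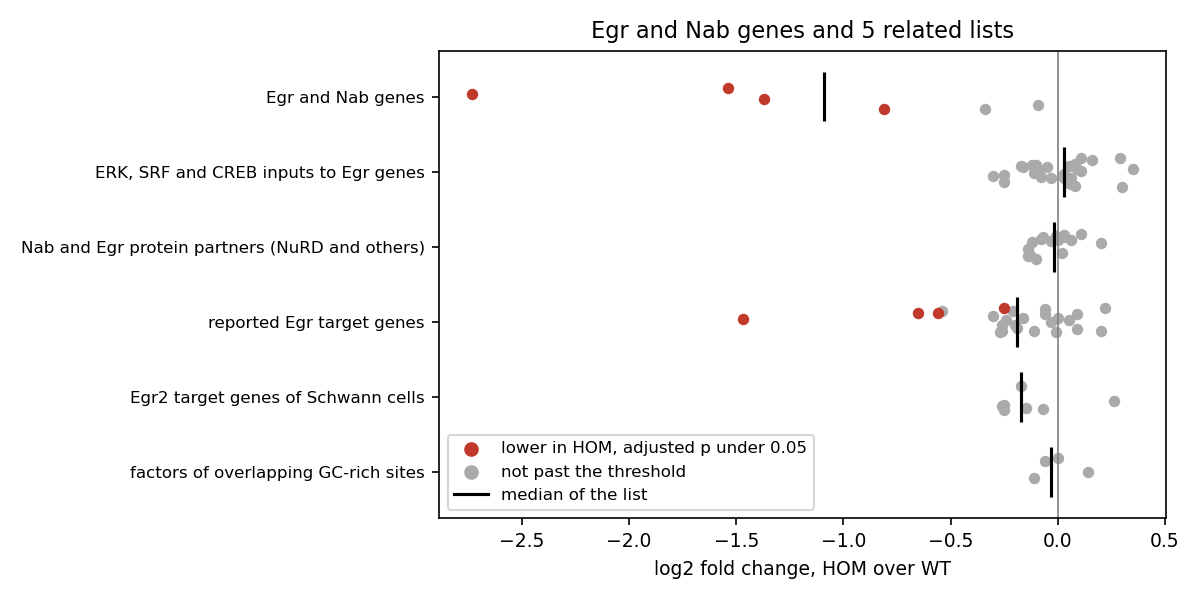
Log2 fold change (x axis, HOM over WT) of the tested genes among the Egr and Nab genes and 5 related lists; red points were lower in HOM at an edgeR adjusted p under 0.05 and bars are list medians. The Egr and Nab genes have a median of -1.09 and the other lists between -0.19 and 0.03.

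Egr2 is required for myelin genes in Schwann cells of peripheral nerve, so that list was read beside the fall in Egr2. Of 8 such genes 7 were tested and none passed with edgeR, DESeq2 or limma-voom, while 4 had an unadjusted p under 0.05 with edgeR; the median log2 fold change was -0.17. Pmp22 stood at -0.25 (edgeR adjusted p = 0.11), Mag at -0.26 (adjusted p = 0.182) and Mbp, the myelin basic protein gene, at -0.25 (adjusted p = 0.211). The 4 Schwann markers, with Pmp2 at 0, summed to 5.64 to 6.61 CPM in HOM and 4.25 to 5.35 CPM in WT. Mbp and Mag are abundant in oligodendrocytes, whose 6 markers had a median log2 fold change of -0.31. Of them edgeR called none, with 6 at an unadjusted p under 0.05 and all 6 log2 fold changes below 0, and DESeq2 called 3. Unadjusted edgeR p-values under 0.05 were common over all genes, as the 0.0471 of Mbp shows beside its adjusted p of 0.211. Their exact share was not counted, so whether 4 of 7 or 6 of 6 exceeds it was not tested.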

How the data were processed

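The deposited values are raw read counts, 1 whole number for each Ensembl gene and library (4 HOM, 4 WT), which the authors did not normalize. Per the labels, libraries were stranded and paired-end; the submitters' processing notes name STAR, featureCounts, edgeR, FastQC 0.11.3 and the build GRCm38. Other versions and how strand was set are not given in the sources used. Of 1263 protein-coding genes nested in another gene 1258 were at 0 in every library, against 13.5% of the 20655 others, and so were 807 of 811 nested only in genes of the opposite strand. The counts are therefore taken to include introns and to ignore strand, and overlapping genes are uncertain.

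Names and positions came from GENCODE M21. Counts were tested with edgeR 4.0.16 (R 4.3.3): filterByExpr at its defaults (about 10 counts in 4 libraries), TMM scaling, the quasi-likelihood F test, and Benjamini-Hochberg adjustment over 17395 genes at 0.05. Levels are CPM on TMM-scaled library sizes, with a prior count of 2 for log2 CPM. Pair ratios and covariation were tested by exact permutation and are adjusted over 15 pairs. The fit was tested on simulated data.

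The genes, the lists and their naming rule were chosen with earlier results of these data known. Named were the 6 genes, Scn2a, every list member past the threshold or else up to 4 of smallest p, and the 6 genes most alike in covariation; others appear only to give a value. Some genes enter the list counts without being named, and their single values are not reported here. Alternatives were RLE, upper-quartile and total-count scaling, no filter and a filter of 1 CPM, DESeq2 1.42.0, limma-voom 3.58.1, robust quasi-likelihood, a replicate block, 1 surrogate variable (sva 3.50.0), a choroid plexus covariate, leaving out each library or both numbered 4, and scaling to excitatory markers.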

Additional observations from a re-analysis of the deposited data

Results flagged for a closer look

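A pair of values lay far from the other 3 libraries of their genotype by Dixon's criterion at the 95% level for 4 samples. Egr3 in HOM replicate 4 stood at 90.4 CPM, where the other HOM libraries held 101 to 103 CPM. Egr1 in WT replicate 3 stood at 433 CPM, where the other WT libraries held 351 to 361 CPM. Chance flags about 1 in 20 groups of samples, and these were 2 of the 22 groups of named values checked (8 of 172 over all listed genes). Without HOM replicate 4 the log2 fold change of Egr3 was -0.75 (edgeR adjusted p = 0.000367), against -0.81 with it.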

How the results depend on the processing

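All 4 Egr genes were lower and past the threshold in every fit run. With 1 library left out, log2 fold changes ran from -1.65 to -1.42 for Egr1, -2.86 to -2.63 for Egr2, -0.83 to -0.75 for Egr3 and -1.47 to -1.23 for Egr4. Nab1, which missed the threshold, passed with no filter (-0.32, adjusted p = 0.0498), DESeq2 (-0.33), limma-voom (-0.35), robust quasi-likelihood (-0.34) and 1 surrogate variable (-0.28), and ranged from -0.40 to -0.25 with 1 library left out; the cause was not tested. Nab2 turned to 0.10 with libraries scaled to excitatory neuron markers, the only alternative added after the planned ones, and ranged from -0.18 to 0.01 with 1 library left out. The lists behind the alternatives, choroid plexus among them, were chosen with earlier results of these data known. The same 13 pair differences passed with both other prior counts tried, and 0 covariations passed after adjustment under the 3 alternatives run for them.

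Counts over all genes depended on the fit. Against 940 genes past the threshold there were 1846 with DESeq2, 2338 with 1 surrogate variable, 38 with the choroid plexus covariate, 335 without both replicates numbered 4, 2686 when scaled to excitatory markers and 180 to 1187 with 1 library left out. Of the listed pathway genes, 4 passed in the main result, 10 with DESeq2, 15 with 1 surrogate variable, 0 with the choroid plexus covariate, 2 without both replicates numbered 4, 13 when scaled to excitatory markers and 1 to 5 with 1 library left out. The cause was not tested. The replicate block gave 364 genes and 2 pathway genes. Deviations of same-numbered libraries correlated at 0.05, -0.20, -0.01 and 0.03, and those of differently numbered ones between -0.21 and 0.25. No pairing by number was seen, but so few values cannot exclude one, and the labels do not say what the numbers mean. Counting alone gives a coefficient of variation of 11.6% for Egr2 in HOM, where 15.2% was seen, and of 2.88% for Nab1 in WT, where 3.27% was seen.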
